A study of Mus musculus with 8 samples.

Results

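The 10 genes described here encode receptors through which macrophages take up modified lipoproteins, remnant lipoproteins, particles and debris: Cd36, Scarb1, Msr1, Marco, Colec12, Olr1, Cxcl16, Stab1, Lrp1 and Cd68. They were chosen by name, with earlier results of these data known, and all 10 were found among the 24421 gene symbols counted in every library. RNA sequencing was done on primary mouse macrophages in 8 libraries: 3 from wild-type mice (WT), 3 labelled LysM-DKO and 2 labelled ABCG1KO. The series calls the double-knockout macrophages Epsin-DKO, and LysM names the promoter, active in myeloid cells, that commonly drives Cre recombinase in such mice; ABCG1KO names the loss of the cholesterol exporter ABCG1. All mice were on a normal diet, and the study asks how epsins bear on lipid handling and on cholesterol efflux through ABCG1. The labels give neither the tissue of the macrophages nor the age and sex of the mice, and nothing states that libraries of a group came from separate animals, so the tests measure the spread between these libraries, which may be technical.

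Scavenger receptors bind oxidised or acetylated low-density lipoprotein and other polyanionic ligands, and many of them are not turned down when cholesterol accumulates, which is why they are known for foam cell formation in atherosclerosis. Some, such as LRP1, enter the cell through clathrin-coated pits, where epsins act as adaptors that bind ubiquitinated cargo, and an interaction of epsins with LRP1 in macrophages has been described. MARCO is known mainly for the capture of bacteria and particles during phagocytosis, and the class B receptor encoded by Scarb1 exchanges cholesterol with high-density lipoprotein largely without internalising it. Transcript counts measure none of these routes and show only how much receptor messenger RNA was present.

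Each library held 29567615 to 41888516 counts in genes. Levels are given in CPM, a gene's count scaled to the total of its library after TMM adjustment. A gene was called changed at an adjusted p under 0.05 over the 13821 genes tested (edgeR quasi-likelihood test, Benjamini-Hochberg adjustment). Epn1 was at 191 to 229.6 CPM in WT and at 154 to 183 CPM in the libraries labelled LysM-DKO, so most of the transcript was present there; Epn2 overlapped between these groups (4.97 to 8.86 against 5.67 to 13.2 CPM) and no library held more than 5 counts of Epn3. Abcg1 was at 345 to 405 CPM in WT and at 60.4 and 73.4 CPM in ABCG1KO. The macrophage markers Csf1r and Adgre1 were high in every library, at 909 CPM or more and at 425 CPM or more. Xist, the female-specific transcript, ran from 79.0 to 265 CPM over WT 1 to 3, LysM-DKO 2 and LysM-DKO 3. LysM-DKO 1 and both ABCG1KO libraries held at most 2 Xist counts and had 81.6 to 94.7 CPM of the Y-linked gene Ddx3y. Sex and genotype therefore cannot be told apart in ABCG1KO against WT. Reads aligned to several loci made up 6.74% and 6.93% of the ABCG1KO libraries and 2.65% to 3.01% of the other 6. The housekeeping transcript Gapdh was at 730.4 to 1704 CPM in WT and LysM-DKO and at 4.99 and 2.05 CPM in ABCG1KO. Pooled over all annotated transcripts of Gapdh, 1155 of 4598 stretches of 50 bases (25.1%) also occur in transcripts of other genes. The share among the reads counted can differ from this and was not measured. Why the Gapdh level differed was not tested. A difference in how the libraries were prepared or processed also cannot be told apart from genotype in comparisons with ABCG1KO.

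The receptor family split in ABCG1KO. Marco and Olr1, close to absent in WT, rose 658-fold and 186-fold, Scarb1 and Cd68 fell 1.86-fold and 2.08-fold, and Lrp1 showed no called change. The size of the 2 rises rests on 1 to 110 Marco counts and 8 to 31 Olr1 counts in a WT library. The Marco call was lost when any WT library was left out. Of the 10 receptors, 4 were called in ABCG1KO against WT, 2 higher and 2 lower, where 16.0% of all genes tested were called (7.21% higher and 8.83% lower). The median log2 fold change of the 10 was 0.42, against 0.01 over all genes. Because the 10 were chosen with earlier results of these data known, these shares are no test of the family. In LysM-DKO against WT 0 of the 10 were called by edgeR, against 0.0362% of all genes (0.0217% higher and 0.0145% lower), and DESeq2 called 1. At an unadjusted p under 0.05 by edgeR the receptors numbered 4, namely Olr1, Scarb1, Stab1 and Cxcl16, where 11.7% of all genes were under it. Both comparisons use the same 3 WT libraries.

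**Figure D1:**
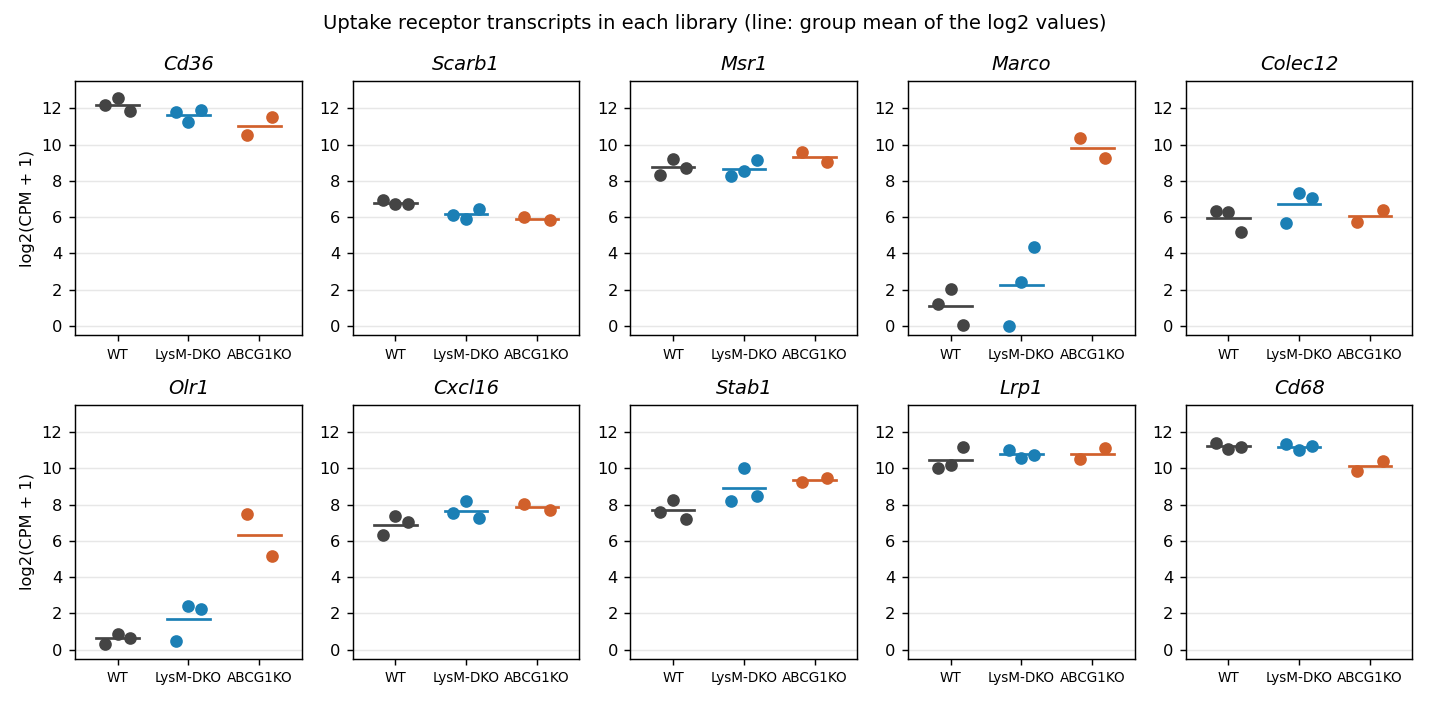
Level of each receptor transcript in each of the 8 libraries, as log2(CPM + 1) on the vertical axis, by group; each point is a library and each line is the mean of the log2 values of its group. Marco and Olr1 are separated in ABCG1KO by the largest distances from the other groups, and Lrp1 overlaps in all 3 groups.

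The sequence before the start site is shown for Marco and Olr1, which rose in ABCG1KO, for Cd68, which fell, and for Lrp1, which was not called. Entries in RefSeq (GRCm38.p6, the mm10 assembly) were found for 6 of the 10 members. Each run is the 250 bases before the start, 5′ to 3′ on the gene's strand, and capitals mark matches to motifs.
Marco, chr1:120505025-120505274, minus strand: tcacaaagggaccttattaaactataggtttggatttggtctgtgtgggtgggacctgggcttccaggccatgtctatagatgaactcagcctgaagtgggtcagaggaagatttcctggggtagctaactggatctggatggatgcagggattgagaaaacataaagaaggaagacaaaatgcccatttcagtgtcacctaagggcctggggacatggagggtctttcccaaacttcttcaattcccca
Olr1, chr6:129507166-129507415, minus strand: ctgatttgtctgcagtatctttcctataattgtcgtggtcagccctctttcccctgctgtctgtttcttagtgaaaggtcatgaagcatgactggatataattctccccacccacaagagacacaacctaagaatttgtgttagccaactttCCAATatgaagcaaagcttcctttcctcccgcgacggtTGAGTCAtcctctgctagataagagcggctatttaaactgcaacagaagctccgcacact
Cd68, chr11:69666171-69666420, minus strand: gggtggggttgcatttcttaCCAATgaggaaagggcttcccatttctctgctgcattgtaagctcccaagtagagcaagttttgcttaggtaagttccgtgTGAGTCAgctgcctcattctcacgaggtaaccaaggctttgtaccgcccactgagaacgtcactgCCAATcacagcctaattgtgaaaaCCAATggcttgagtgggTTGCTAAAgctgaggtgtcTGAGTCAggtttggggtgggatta
Lrp1, chr10:127621149-127621398, minus strand: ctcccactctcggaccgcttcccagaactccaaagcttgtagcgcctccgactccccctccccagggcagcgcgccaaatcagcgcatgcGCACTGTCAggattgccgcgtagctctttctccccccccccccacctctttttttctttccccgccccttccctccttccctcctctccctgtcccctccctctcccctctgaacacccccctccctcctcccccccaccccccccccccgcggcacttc

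The motifs, searched on both strands, were GAGGAAGT (PU.1), TGANTCA (AP-1), TGACNNNGC (the antioxidant response element), CACGTG (E-box), the direct repeats of AGGTCA spaced by 1 base (DR1, bound by PPAR) and by 4 bases (DR4, bound by LXR), TCACNCCAC (the sterol response element), TATAAA (the TATA box), CCAAT and TTGCNNAA (C/EBP). Marco held none of them. Olr1 held the AP-1 motif 60 to 54 bases before its start, and Cd68 held it at 149 to 143 and 24 to 18 bases; 6.75% of 32851 promoter windows of this length hold it. Cd68 also held 3 CCAAT motifs, found in 33.8% of windows, and a C/EBP motif (9.56%), and Olr1 held 1 CCAAT motif. Lrp1 held 1 antioxidant response element match on the opposite strand (10.2%). The motifs with no match in these 4 windows are held by 2.44% (PU.1), 6.02% (E-box), 0.0335% (DR1), 0.0152% (DR4), 1.05% (sterol response element) and 12.4% (TATA box) of all windows. No motif matches of the printed windows overlapped. The Lrp1 window was 67.2% G and C with 13 CpG dinucleotides, whereas Marco was 47.6% with 0, Olr1 45.2% with 6 and Cd68 49.2% with 4, against medians of 52.4% and 6 over all windows. A match is not evidence of binding, and none of the files measure it.

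Levels of different genes were set on one scale by dividing CPM by the exonic length in the GENCODE M21 annotation. This length joins the exons of all annotated transcripts of a gene and can exceed that of the transcripts expressed, so the order depends on it. In WT, Cd68 (1890.5 ± 215 CPM per kb, SD, n = 3) and Cd36 (1340.0 ± 336) stood highest, and their libraries overlapped slightly (1689.7 to 2118 against 1035 to 1701). Lrp1 (84.5 ± 38.8 CPM per kb), Msr1 (69.6 ± 22.2), Cxcl16 (40.9 ± 14.1), Stab1 (20.8 ± 8.21) and Scarb1 (13.1 ± 1.22) followed, each overlapping its neighbour in this order. Colec12 (7.30 ± 2.76 CPM per kb) lay below Scarb1 without overlap, and Marco (0.765 ± 0.785) and Olr1 (0.157 ± 0.0874) were lowest and overlapped. In ABCG1KO the order of the first 3 was Cd68, Cd36 and Marco: Marco reached 322 and 679 CPM per kb, overlapping Cd36 (418 and 831) and above Lrp1 (83.0 and 124). The same order in LysM-DKO began with Cd68, Cd36 and Lrp1, and ended with Marco and Olr1.

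The class A receptors are trimeric proteins with collagen-like stalks. Marco (chr1:120474538-120505024, minus strand, mm10) is the member whose level differed most between groups. WT libraries 1, 2 and 3 held 46, 110 and 1 Marco counts, or 1.35, 3.04 and 0.0259 CPM. LysM-DKO libraries 1, 2 and 3 held 0, 181 and 792 counts, or 0, 4.41 and 19.8 CPM, and the count of 0 allows up to 0.0727 CPM. ABCG1KO libraries 1 and 2 held 41700 and 26305 counts, or 1307 and 620.3 CPM. Every ABCG1KO library thus lay above every other library, and the 6 others ran from 0 to 19.8 CPM, with WT 3 and LysM-DKO 1 at the bottom. The log2 fold change in ABCG1KO against WT was 9.36 (SE 2.00 and adjusted p 0.0204, edgeR), or 658-fold. This call was lost in 5 of 14 alternative fits, those without WT 1, WT 2, WT 3 or ABCG1KO 1 and the fit with no count filter, with adjusted p-values of 0.0523 to 0.0835 and log2 fold changes of 8.72 to 10.47 in those; over all 14 fits the adjusted p ran from 0.00694 to 0.0835. DESeq2 gave no adjusted p for Marco. In LysM-DKO against WT the log2 fold change of 2.46 (SE 1.54 and adjusted p 0.551, edgeR) was not called, nor was it in any of 14 alternatives (adjusted p 0.405 to 0.895).

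Some markers of other cell types and macrophage states were also higher in ABCG1KO. The summed CPM of 10 resident peritoneal macrophage markers was 1824 and 312 in ABCG1KO 1 and 2, 18.3 to 85.9 in WT and 8.92 to 66.7 in LysM-DKO. The sum of 6 monocyte markers was 417 and 231 in ABCG1KO 1 and 2, 4.97 to 69.3 in WT and 18.9 to 120.4 in LysM-DKO. Of the peritoneal markers 3 of 10 were called (Alox15, Prg4 and Timd4, all higher), and Gata6 (30.7 against 13.4 CPM in WT) and Rarb (3.03 against 3.17 CPM) were among those not called. Of the monocyte markers 2 of 6 were called, Ccr2 and Ly6c2, both higher. The sum of 5 mast cell markers was 43.7 and 6.37 CPM in ABCG1KO 1 and 2 and at most 2.95 CPM elsewhere, with 0 of 3 tested called by edgeR. None of the 10 peritoneal markers was at 0 in all libraries of a group, and neither was any of the 6 monocyte markers. Within the libraries that lack Xist, LysM-DKO 1 had 0 CPM of Marco, against 1307 and 620.3 CPM in ABCG1KO. LysM-DKO 1 also had the lowest peritoneal marker sum of all libraries (8.92 CPM), and WT 3, with 1 Marco count, the next lowest (18.3 CPM). Above these the 2 orders differed. LysM-DKO 3, with the most Marco outside ABCG1KO (19.8 CPM), had a sum of 45.0 CPM. WT 2, with the highest sum outside ABCG1KO (85.9 CPM), had 3.04 CPM of Marco. The part of these markers in the Marco difference was not tested, and in bulk RNA more cells with a transcript and more transcript per cell cannot be told apart.

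Msr1 (chr8:39581685-39642673, minus strand) encodes the classical scavenger receptor A of foam cells. It was at 319, 595 and 410.1 CPM in WT, 312, 369 and 559.7 CPM in LysM-DKO, and 781 and 518 CPM in ABCG1KO. The groups overlapped: the log2 fold change was 0.56 (SE 0.335 and adjusted p 0.294, edgeR) in ABCG1KO and -0.09 (SE 0.303 and adjusted p 0.922, edgeR) in LysM-DKO, the latter turning to 0.06 when libraries were scaled by size only. Colec12 (chr18:9707595-9882644, plus strand), a collectin-type receptor also expressed in endothelium and fibroblasts, was at 78.6, 76.5 and 35.9 CPM in WT. The LysM-DKO libraries had 51.0, 159 and 134 CPM, and the ABCG1KO libraries 52.2 and 84.7 CPM. The 2 highest Colec12 libraries were LysM-DKO 2 and 3, but LysM-DKO 1 lay among the WT libraries and the log2 fold change of 0.85 (SE 0.462 and adjusted p 0.501, edgeR) was not called. The summed CPM of 6 fibroblast markers was also highest in LysM-DKO 3 among LysM-DKO and WT libraries, at 1663, with 955 in LysM-DKO 2, 678 in LysM-DKO 1 and 754 to 913 in WT; its part in the Colec12 values was not tested.

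Lectin-like and chemokine-type receptors came next. Olr1 (chr6:129485244-129507165, minus strand) encodes LOX-1, the lectin-like receptor for oxidised low-density lipoprotein. It was at 0.234, 0.856 and 0.595 CPM in WT, with 8, 31 and 23 counts. LysM-DKO 1 was at 0.388 CPM, within the WT range, and LysM-DKO 2 and 3 were at 4.41 and 3.67 CPM. ABCG1KO 1 was at 177 CPM and ABCG1KO 2 at 34.4 CPM, so both exceeded all other libraries while differing from each other by 5.14-fold. The log2 fold change in ABCG1KO against WT was 7.54 (SE 1.15 and adjusted p 0.00591, edgeR), or 186-fold, and it was called in all 15 alternative fits that tested Olr1, with values of 5.92 to 8.27. In LysM-DKO against WT it was 2.31 (SE 0.980), with an unadjusted p of 0.0471 and an edgeR adjusted p of 0.427.

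Cxcl16 (chr11:70453983-70459984, minus strand) encodes a membrane-bound chemokine that also acts as a scavenger receptor for oxidised lipoprotein and phosphatidylserine. It was at 78.3, 163 and 129.6 CPM in WT, 187, 292 and 151 CPM in LysM-DKO, and 264 and 205 CPM in ABCG1KO. Both ABCG1KO libraries lay above WT, and LysM-DKO 3 overlapped WT 2. The log2 fold changes of 0.92 in ABCG1KO (SE 0.349 and adjusted p 0.112, edgeR) and 0.76 in LysM-DKO (SE 0.318 and adjusted p 0.420, edgeR) were not called. DESeq2 called the ABCG1KO value (adjusted p 0.0423, within 0.0423 to 0.351 over 16 alternatives). Exons of Cxcl16 overlap those of Zmynd15 on the opposite strand over 552 bases, 18.3% of the exonic length, and without a stated strand setting its level is uncertain to that extent.

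The class B receptors bind both native and oxidised lipoproteins. Cd36 (chr5:17781690-17888801, minus strand) encodes the fatty acid and oxidised lipoprotein receptor and was among the most abundant transcripts of the family. It was at 4613, 6105 and 3714 CPM in WT, 3561, 2414 and 3789 CPM in LysM-DKO, and 1501 and 2982 CPM in ABCG1KO. The ABCG1KO libraries lay below WT without overlap, whereas LysM-DKO 3 overlapped WT 3. The log2 fold change was -1.10 (SE 0.362 and adjusted p 0.0744, edgeR) in ABCG1KO and -0.56 (SE 0.313 and adjusted p 0.506, edgeR) in LysM-DKO, neither called. DESeq2 called the ABCG1KO difference (adjusted p 0.0115), as did edgeR without ABCG1KO 2 (adjusted p 0.0348, log2 fold change -1.69), within a range of 0.0115 to 0.310 over 16 alternatives.

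Scarb1 (chr5:125277087-125341094, minus strand), the high-density lipoprotein receptor, had the smallest ratio of highest to lowest library of the family in WT (1.18). It was at 123, 105 and 105 CPM in WT, 69.3, 59.1 and 85.6 CPM in LysM-DKO, and 63.0 and 56.4 CPM in ABCG1KO. All 5 libraries labelled LysM-DKO or ABCG1KO lay below all 3 WT libraries. Scarb1 fell in ABCG1KO by 0.89 on the log2 scale (SE 0.180 and adjusted p 0.0151, edgeR), a call lost without ABCG1KO 1 (adjusted p 0.0643) or ABCG1KO 2 (adjusted p 0.0612) and kept in the other 14 alternatives, where the adjusted p went as low as 0.000763. In LysM-DKO the log2 fold change was -0.64 (SE 0.157) with an unadjusted p of 0.00344 and an edgeR adjusted p of 0.289, which was not called; DESeq2 called it at an adjusted p of 0.0491, with 0.0491 to 0.672 over the 16 alternatives. Scarb1 was the 1 receptor of the 10 whose LysM-DKO and WT libraries did not overlap, where 21.0% of all genes did not (9.98% lower). In ABCG1KO against WT, 7 of the 10 did not overlap, 4 higher and 3 lower, where 48.2% of all genes did not (23.9% higher and 24.2% lower).

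Stab1 (chr14:31139013-31168641, minus strand) encodes stabilin-1, a clathrin-dependent clearance receptor of alternatively activated macrophages and sinusoidal endothelium. It was at 188, 308 and 145 CPM in WT, 292, 1029.8 and 358 CPM in LysM-DKO, and 602 and 716 CPM in ABCG1KO. Both ABCG1KO libraries exceeded WT, LysM-DKO 1 overlapped WT 2, and LysM-DKO 2 was the highest of all. The log2 fold changes of 1.62 in ABCG1KO (SE 0.540 and adjusted p 0.0808, edgeR) and 1.39 in LysM-DKO (SE 0.498 and adjusted p 0.375, edgeR) were not called. The ABCG1KO value was called in 5 of 16 alternatives, DESeq2 among them (adjusted p 0.00722, range 0.00722 to 0.203). The summed CPM of 8 endothelial markers was lower in ABCG1KO, at 18.4 and 32.3, than in WT (91.1 to 117) or LysM-DKO (62.8 to 88.9), and its part in the Stab1 values was not tested. Of 5 endothelial markers tested in ABCG1KO against WT, Kdr and Vwf fell (log2 fold changes of -4.38 and -2.29), Tie1 was not called, and Pecam1 (6.58 against 1.27 CPM) and Cdh5 (0.561 against 0.209 CPM) lay above every WT library without a call. Of the 8, Tek and Emcn were at 0 in all WT libraries and Emcn in all LysM-DKO libraries.

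Cd68 (chr11:69664213-69666153, minus strand) encodes a heavily glycosylated protein of the lysosomal membrane family that is used as a macrophage marker and binds oxidised lipoprotein. It was at 2662, 2124 and 2343 CPM in WT, 2568, 2074 and 2373 CPM in LysM-DKO, and 917 and 1369 CPM in ABCG1KO. WT and LysM-DKO covered nearly the same range, and both ABCG1KO libraries lay below it. Cd68 fell in ABCG1KO by 1.06 on the log2 scale (SE 0.228 and adjusted p 0.0192, edgeR), with an adjusted p of 0.000121 to 0.117 over 16 alternatives. The call was lost with the replicate number as a block (adjusted p 0.0643) and without WT 1 (adjusted p 0.0534) or ABCG1KO 1 (adjusted p 0.117). Of 8 other macrophage markers, Csf1r, Adgre1, Cd14 and Aif1 rose in ABCG1KO, with log2 fold changes of 1.19, 1.21, 1.87 and 1.83. The 4 not called were Itgam (1.01), Fcgr1 (-0.85), Lyz2 (-0.19) and Mertk (-0.12), so 3 of the 8 had values below 0. In LysM-DKO against WT the Cd68 log2 fold change was -0.02 (SE 0.197 and adjusted p 0.974, edgeR) and turned to 0.13 with libraries scaled by size only.

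**Figure D2:**
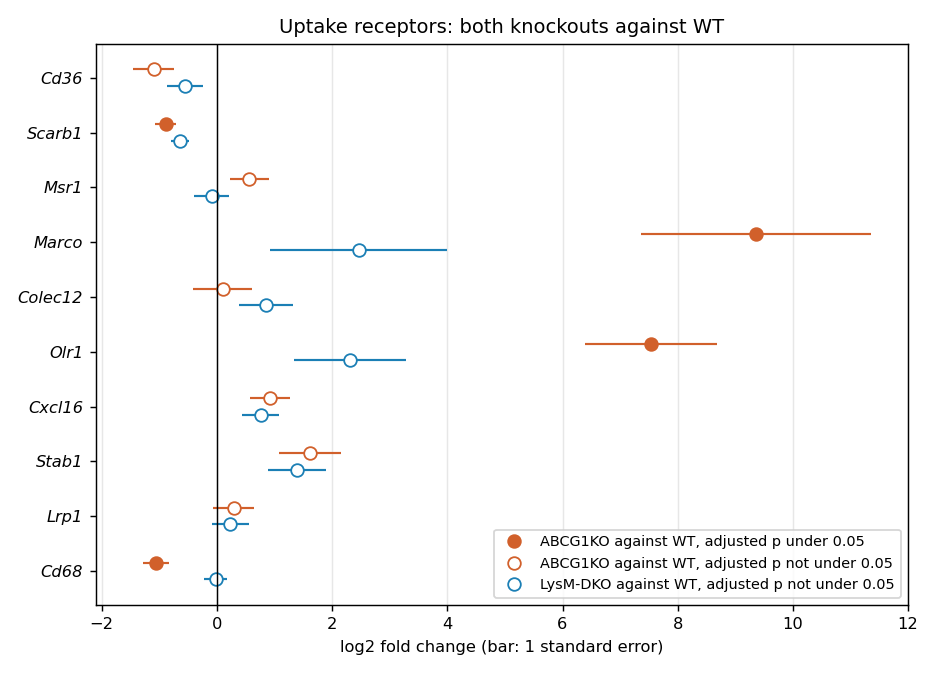
Log2 fold change (horizontal axis) of the 10 receptors in ABCG1KO against WT (orange) and in LysM-DKO against WT (blue); bars are 1 standard error and filled points have an adjusted p under 0.05. The 4 filled points are Scarb1, Marco, Olr1 and Cd68 in ABCG1KO, with values of -0.89, 9.36, 7.54 and -1.06.

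Lrp1 (chr10:127538161-127621148, minus strand) is the endocytic receptor of the family, taking up apolipoprotein E remnants and protease-inhibitor complexes through clathrin-coated pits. It was at 1033, 1169 and 2287 CPM in WT, 2028, 1534 and 1691 CPM in LysM-DKO, and 1471 and 2194 CPM in ABCG1KO. WT 3 was the highest library of all and WT 1 and 2 the lowest, so the WT spread enclosed both other groups. The log2 fold change was 0.29 (SE 0.354 and adjusted p 0.614, edgeR) in ABCG1KO and 0.23 (SE 0.319 and adjusted p 0.799, edgeR) in LysM-DKO. Without ABCG1KO 2 the ABCG1KO value was -0.03. The overlap does not show that the levels are equal. Fibroblasts also express Lrp1. The summed CPM of 6 fibroblast markers was 160.0 in ABCG1KO 1 and 1185 in ABCG1KO 2. In WT 1, 2 and 3 the sum was 754, 815 and 913, and in LysM-DKO 1, 2 and 3 it was 678, 955 and 1663. The part of this sum in the Lrp1 values was not tested.

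Set side by side in each library, the clathrin-dependent receptor Lrp1 and the phagocytic receptor Marco did not move together. WT 1, 2 and 3 held 46, 110 and 1 Marco counts beside 35242, 42353 and 88385 Lrp1 counts, log2 ratios of -9.57, -8.58 and -15.85 with 0.5 added to each count. In LysM-DKO the ratios were -17.35, -8.44 and -6.42, and in ABCG1KO, where 41700 and 26305 Marco counts stood beside 46913 and 93037 of Lrp1, they were -0.17 and -1.82. This ratio does not depend on how libraries are scaled. The mean log2 ratio was -11.33 ± 3.94 in WT (SD, n = 3) and -10.74 ± 5.82 in LysM-DKO (n = 3), and the SD in ABCG1KO was 1.17 (n = 2). ABCG1KO exceeded WT by 10.34 on this scale, and by 8.08 to 11.71 with a library left out, more than the spread within either group. Both genes were set side by side with earlier results of these data known. With an Lrp1 log2 fold change of 0.29, the ratio largely restates that of Marco, 9.36. Neither gene stands for its route: Stab1, also clathrin-dependent, was at 602 and 716 CPM in ABCG1KO and 145 to 308 CPM in WT, without an edgeR call. LysM-DKO exceeded WT by 0.60, less than the spread, and the sign turned without WT 3, LysM-DKO 2 or LysM-DKO 3. No correlation of Marco with Lrp1 is given, since it would rest on the difference between groups.

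**Figure D3:**
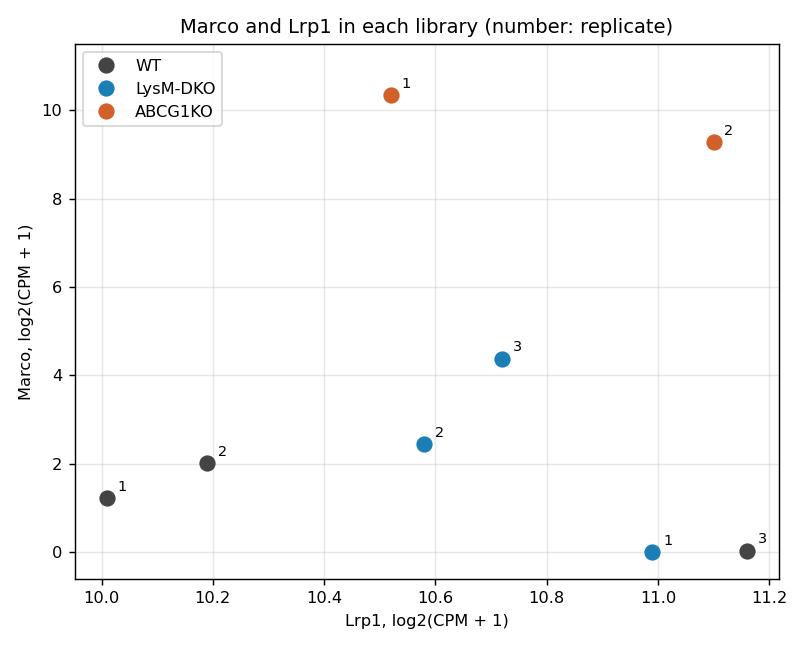
Marco (vertical axis) against Lrp1 (horizontal axis) in each of the 8 libraries, both as log2(CPM + 1); colours are groups and numbers are replicates. Both ABCG1KO libraries lie above 9 on the Marco axis while their Lrp1 levels lie within the span of the WT libraries.

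In the libraries labelled LysM-DKO against those labelled ABCG1KO, 3 of the 10 receptors were called, where 13.4% of all genes were (7.76% higher and 5.64% lower). Libraries of the same 3 did not overlap, where 48.2% of all genes did not (25.6% higher and 22.6% lower). Marco was lower in LysM-DKO by a log2 fold change of -6.90 (SE 1.79 and adjusted p 0.0433, edgeR) and Olr1 by -5.22 (SE 1.01 and adjusted p 0.0176, edgeR), while Cd68 was higher by 1.03 (SE 0.228 and adjusted p 0.0242, edgeR). Marco was called in 6 of 14 alternatives, Olr1 in 12 of 15 and Cd68 in 12 of 16, with highest adjusted p-values of 0.167, 0.112 and 0.163. All 3 calls were lost without ABCG1KO 1, in the fit of these groups alone and with the replicate block (adjusted p-values of 0.117, 0.0601 and 0.0772); Marco was also not called with no count filter or without WT 1, WT 2, LysM-DKO 2 or ABCG1KO 2, and Cd68 without LysM-DKO 1. The difference of Scarb1 was 0.26 (SE 0.177 and adjusted p 0.361, edgeR) and that of Stab1 -0.23 (SE 0.544 and adjusted p 0.804, edgeR), so a difference between these groups was not shown for these. Among the libraries without Xist, Olr1 was at 0.388 CPM in LysM-DKO 1 against 177 and 34.4 CPM in ABCG1KO, and Cd68 at 2568 CPM against 917 and 1369 CPM.

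Other scavenger and lipoprotein receptors varied in both directions in ABCG1KO. This list and those below were also chosen with earlier results of these data known, so their shares are no test of enrichment. Of 24 further receptors 23 were tested, and 4 rose and 3 fell, or 30.4% beside 16.0% of all genes, with a median log2 fold change of 0.29. Over the alternatives 2 to 10 were called. Clec7a, the beta-glucan receptor dectin-1, fell to 551 CPM from 1389 (log2 fold change -1.33), and Lrp5, a Wnt co-receptor, rose from 35.3 to 94.9 CPM (1.43). Cd14, the lipopolysaccharide co-receptor, rose from 139 to 507 CPM (1.87).

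Some ligands and processing enzymes of LRP1 changed in ABCG1KO. Of 22 LRP1 ligands, sorting partners, sheddases and related genes 21 were tested, and 6 rose and 1 fell, or 33.3% beside 16.0% of all genes (7.21% higher and 8.83% lower). This count ran from 2 to 8 over the alternatives. Thbs1, the ligand thrombospondin-1, rose from 199.7 ± 69.1 CPM (SD, n = 3) to 2299 ± 20.3 (n = 2), a log2 fold change of 3.53 (SE 0.506 and adjusted p 0.00400, edgeR). Adam17, a sheddase, rose from 227 to 379.5 CPM (0.74). Mylip, which encodes an LXR-induced ubiquitin ligase, rose from 32.5 to 120.2 CPM (1.89). Lrpap1, the LRP1 chaperone, was at 208 CPM in WT, 224 CPM in LysM-DKO and 191 CPM in ABCG1KO, and both other groups overlapped WT.

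Of 35 genes of the clathrin machinery 34 were tested and 3 were called in ABCG1KO, 2 higher and 1 lower, or 8.82% beside 16.0% of all genes. The count ran from 2 to 6 over the alternatives. Bin1, a membrane-bending amphiphysin, rose from 93.5 to 228 CPM (log2 fold change 1.28) and Arrb2, an arrestin adaptor, from 155 to 310.4 CPM (1.00). The Arrb2 call was lost in 6 of 16 alternatives, with the replicate block and without WT 1, WT 2, WT 3, LysM-DKO 1 or ABCG1KO 1, where the log2 fold change went down to 0.57. Ap2m1, the cargo-binding subunit of the AP2 adaptor, fell from 315 to 62.6 CPM (-2.33). Transcripts of other genes hold 28.8% of the 50-base stretches pooled over all annotated Ap2m1 transcripts. The share among the reads counted was not measured. How far the shared stretches bear on the Ap2m1 counts was not tested, which leaves the size of the fall uncertain. Dab2, an adaptor that binds receptor tails, was at 60.3 to 210.4 CPM in WT, 141 to 444 CPM in LysM-DKO and 199 and 224 CPM in ABCG1KO, with no call. Epn2 was at 18.6 and 18.5 CPM in ABCG1KO, above every WT library and not called (1.34, edgeR adjusted p 0.0551).

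Regulators of the receptor genes moved in opposite directions in ABCG1KO. Of 18 transcription factors and target genes, 6 rose and 3 fell, or 9 of 18 called where 16.0% of all genes were. The alternatives called 2 to 11 of them, and the fit with the replicate number as a block 4. Pparg, the nuclear receptor known to induce Cd36, fell from 90.5 ± 15.9 CPM (SD, n = 3) to 27.1 ± 2.15 (n = 2), a log2 fold change of -1.74 (SE 0.350 and adjusted p 0.0154, edgeR), and Plin2, a lipid droplet coat protein, from 1932 to 875 CPM (-1.14). Rxra, its heterodimer partner, rose from 166 to 322 CPM (0.96) and Cebpa from 287 to 1025 CPM (1.84).

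Of 16 signalling partners of scavenger receptors, 2 rose and 2 fell, or 25.0% beside 16.0% of all genes, and 2 to 6 were called over the alternatives. Tlr2 rose from 30.1 ± 2.72 CPM (SD, n = 3) to 402 ± 186 (n = 2), a log2 fold change of 3.74 (SE 0.360 and adjusted p 0.000487, edgeR), whereas Tlr4 fell from 77.9 to 34.1 CPM (-1.19). Vav1, a guanine nucleotide exchange factor downstream of CD36, rose from 168 to 291 CPM (0.79), and Cd9, a tetraspanin that associates with CD36, fell from 908 to 393 CPM (-1.21).

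Late endosomal and lysosomal genes were tested for all 12 members, of which 3 fell and 0 rose by edgeR, or 25.0% beside 16.0% of all genes (8.83% lower), with a median log2 fold change of -0.70 and 1 of 12 values above 0. From 1 to 8 were called over the alternatives. Cd63 fell from 1596 to 350.3 CPM (-2.19) and Npc2, which carries cholesterol inside lysosomes, from 2042 to 1175 CPM (-0.80). Cd63 and Cd9 share 11.1% and 14.4% of their 50-base stretches with other genes. In LysM-DKO against WT 0 genes were called by edgeR in any of these 6 lists, and at most 2 of a list in an alternative.

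Of the 23 called genes that the naming rule took from these lists, Abcg1 included, 11 kept their call in all 16 alternatives and 12 lost it in 1 or more, 11 of them without ABCG1KO 1 and 9 without ABCG1KO 2. None of the 23 changed direction in an alternative. Clec7a, Cd14, Adam17, Arrb2, Pparg, Plin2, Tlr4, Cd9 and Npc2 were among the 12 that lost a call.

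**Figure D4:**
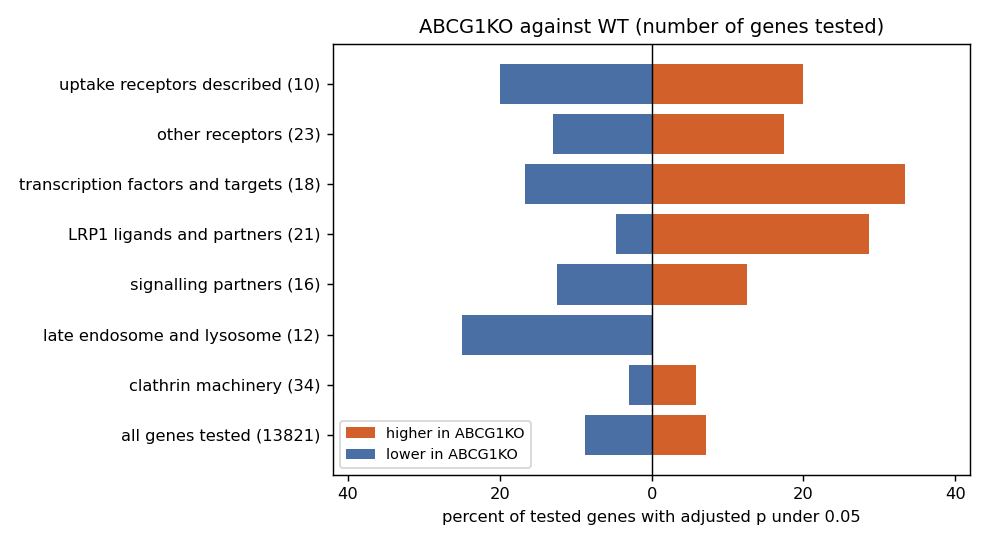
Percent of the tested genes of each list with an adjusted p under 0.05 in ABCG1KO against WT, higher to the right (orange) and lower to the left (blue), with the number of genes tested in brackets and all genes tested at the bottom. The late endosome list has 3 genes to the left and 0 to the right, and the clathrin list lies closest to the bar of all genes.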

How the data were processed

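The deposited files hold raw counts per gene symbol, 1 file per library, with the end lines that htseq-count writes. The submitters' processing notes name mm10, STAR 2.7.9a, TopHat, HTSeq 0.11.2, DESeq2 1.30.1 and limma, with no role or order; the strand setting and the annotation are not given in the sources used here. The 5 counter lines that name no gene were left out (reads outside annotated genes were 4.26% to 13.8% of a library).

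The counts were fitted with edgeR 4.0.16 in R 4.3.3: filterByExpr left 13821 genes, libraries were scaled with TMM factors, and a quasi-likelihood model with robust dispersions and only the group as a term was fitted over the 8 libraries. It had 5 residual degrees of freedom. Benjamini-Hochberg adjustment ran over all genes tested. SE is the log2 fold change divided by the square root of the F statistic. All 10 members passed the filter, Marco with 6 and Olr1 with 7 of 8 libraries above its cutoff of 0.257 CPM. The fitting script was also run on simulated data, with an outcome that is not reported here. A gene that was not called may still differ between groups. A count of 0 allows up to 3 counts, 0.0707 to 0.0941 CPM, which covers counting error only.

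The members and gene lists were chosen with earlier results of these data known. All 10 members are described; from each other list at most 4 genes called in ABCG1KO against WT and 4 in LysM-DKO against WT, by adjusted p, are named, and Epn1, Epn2, Epn3, Abcg1, Lrpap1 and Dab2 always; some genes that the rule takes are not reported here. Shared sequence is the percent of a gene's 50-base stretches found, on either strand, in GENCODE M21 transcripts of other genes. The stretches were pooled over all annotated transcripts of the gene, so the share among the reads counted can differ. Shared sequence was 0.69% or less for 8 members, 4.33% for Colec12 and 16.9% for Cxcl16. Alternatives were RLE factors, library size only, 2 other count filters, DESeq2 1.42.0, the compared groups alone, the replicate number as a block, each library left out and, added after the data were seen, dispersions without robust estimation.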

Additional observations from a re-analysis of the deposited data

Results flagged for a closer look

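Reads that the counter assigned to no gene differed between groups. Reads aligned to several loci averaged 6.84% of the counted reads in ABCG1KO, 2.94% in WT and 2.80% in LysM-DKO. Reads outside annotated genes averaged 12.0% in ABCG1KO, 5.29% in WT and 5.44% in LysM-DKO. Both ABCG1KO libraries lay above all 3 WT libraries in each of these shares. The part of this difference in the receptor values was not tested; of the 4 receptors called in ABCG1KO against WT, Marco and Cd68 share 0% of their 50-base stretches with other genes, Scarb1 shares 0.0703% and Olr1 0.165%.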

How the results depend on the processing

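Of 471 member values under alternatives, 422 kept their direction and side of the threshold, 25 lost a call, 9 gained one and 15 changed direction. With at least 10 counts in every library, 2 members were called in ABCG1KO against WT and 1 in LysM-DKO against ABCG1KO, because Marco and Olr1 were no longer tested. In the fit of 2 groups alone, 0 members and 948 genes were called in LysM-DKO against ABCG1KO, and 8 genes in LysM-DKO against WT. DESeq2 called 1 member (Scarb1) and 278 genes in LysM-DKO against WT and 2947 genes in LysM-DKO against ABCG1KO. Without robust dispersions 3 genes were called in LysM-DKO against WT. The cause of these shifts was not tested.

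Same-numbered libraries of WT and LysM-DKO had correlations of deviations of 0.03, 0.49 and -0.05. WT 1 and WT 3 correlated best with another number, whereas the 0.49 of WT 2 and LysM-DKO 2 was the highest of all pairs. Deviations within groups of 2 or 3 libraries are not independent, so these values neither show nor exclude a pairing by number. With the replicate block 1456, 0 and 1024 genes were called in ABCG1KO against WT, LysM-DKO against WT and LysM-DKO against ABCG1KO, where the fits without it gave 2216, 5 and 1853. The block left 4, 0 and 0 members called, and in the first comparison Stab1 (adjusted p 0.0479) was called and Cd68 (adjusted p 0.0643) was not.

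With a library left out, 1 to 5 members and 853 to 2090 genes were called in ABCG1KO against WT, 0 members and 0 to 8 genes in LysM-DKO against WT, and 0 to 3 members and 561 to 1960 genes in LysM-DKO against ABCG1KO, the lowest in the first and last without ABCG1KO 1. The log2 ratio of Marco to Lrp1 differed by 8.08 to 11.71, by -1.66 to 3.90 and by -11.90 to -6.43 in the same order; in the second it was below 0 without WT 3, LysM-DKO 2 or LysM-DKO 3.

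Scaling by library size only moved the all-gene median of ABCG1KO against WT from 0.01 to 0.25 and the split of calls from 996 higher and 1220 lower to 2074 and 856; in LysM-DKO against WT the median moved from 0.02 to 0.17, and in LysM-DKO against ABCG1KO the split went from 1073 higher and 780 lower to 877 and 1017. Directions of values near 0 turned. By library size Msr1 was 0.06 and Cd68 0.13 in LysM-DKO against WT, and Lrpap1 was 0.11 in ABCG1KO against WT; with the replicate block Colec12 was -0.02 and Lrpap1 0.00 there. With a library left out, log2 fold changes in ABCG1KO against WT ran from -0.29 to 0.40 for Colec12 (below 0 without WT 3 or ABCG1KO 2) and from -0.03 to 0.73 for Lrp1. For LysM-DKO against WT the ranges were -0.37 to 0.16 for Msr1, -0.12 to 0.07 for Cd68, -0.31 to 0.40 for Epn2, -0.60 to 0.11 for Abcg1 and -0.05 to 0.22 for Lrpap1. For LysM-DKO against ABCG1KO they were -1.04 to 0.05 for Stab1, -0.49 to 0.03 for Cxcl16 and -0.34 to 0.26 for Lrp1. DESeq2 gave no adjusted p for Marco. Where ABCG1KO was left with 1 library, that library was assumed to vary like the other groups.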

Other observations

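The transcripts whose levels followed 3 of the receptors most closely over the 8 libraries were found by Pearson correlation of log2(CPM + 1) among 8511 genes with a mean of at least 10 CPM. The libraries fall into groups, so r follows the differences between groups and describes these 8 libraries only. Marco was followed by Rab32 (r = 0.992), Cfb (0.991) and Adgb (0.988). Rab32 was at 189 CPM or more in ABCG1KO and at 46.0 to 87.6 CPM in the other groups, and Cfb at 166 and 470.2 CPM against at most 11.1 CPM. Lrp1 was followed by Nek7 (r = 0.923), Lpcat1 (0.920) and Pja2 (0.896), whose levels overlapped between all 3 groups as those of Lrp1 did. Cd36 was followed by Sdc1 (r = 0.976), Mapre2 (0.955) and Dhx32 (0.954). Sdc1, the heparan sulphate proteoglycan syndecan-1, which can itself take up remnant lipoproteins, was at 299.5 to 486 CPM in WT, 169 to 239 CPM in LysM-DKO and 81.9 to 176 CPM in ABCG1KO.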
